A study of Homo sapiens with 9 samples.

Results

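Streptomycin (SM) was compared with no antibiotic in SW620 cells, an established human colorectal cancer line of metastatic origin. The comparison used 6 of the 9 sequenced libraries, 3 from cells given 120 µM SM for 48 h and 3 from cells given neither SM nor its relative dihydrostreptomycin (DSM). The other 3 libraries, from cells given 120 µM DSM for 48 h, entered the same model and are used where the 2 compounds are compared. All 3 groups are given as genotype WT. Every culture grew in low-attachment plates coated with poly-HEME, in DMEM/F12 with N2 supplement, glucose, insulin, basic FGF and EGF, so these growth factors were present with and without SM. Of 28307 genes in the count table, 15415 had 10 or more counts in at least 3 of the 6 libraries and were tested. The design names 3 biological replicates per group, all of 1 cell line. Unless stated otherwise, the p-values measure the spread that remains between the 9 cultures once what same-numbered libraries share is removed. Since the RNA came from bulk cultures, fewer cells of a kind and less RNA per cell cannot be told apart.

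SM is an aminoglycoside that binds the small subunit of the bacterial ribosome, and DSM is SM with the aldehyde of its streptose sugar reduced to an alcohol. In mammalian cells the integrated stress response lets the transcription factor ATF4 accumulate, and ATF4 drives genes of amino acid synthesis, amino acid transport and tRNA charging. The chaperones of the endoplasmic reticulum are controlled mainly by other factors of the unfolded protein response. Colon cancer cells such as SW620 carry an active Wnt pathway, of which MYC is a well known target, and they also make matrix proteins and growth factor carriers that shape how cells attach and signal.

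Genes called here had an edgeR adjusted p below 0.05 in a model with the replicate number as a block, a block being a term that removes what same-numbered libraries share. By that rule 422 genes were called, 2.74% of those tested, with 188 higher with SM (1.22%) and 234 lower (1.52%). All but 1 of the 422 moved the same way in all 3 same-numbered pairs of SM and untreated libraries. For reference, 17.7% of all tested genes were higher in all 3 pairs and 18.7% were lower. The blocked test itself favours genes whose pairs agree, so this gap is built in. The exception, chosen after its values were seen, was INHBE, a stress-induced secreted factor, which lay at 0.870, 7.27 and 7.18 CPM in untreated replicates 1, 2 and 3 and at 0.771, 11.02 and 11.6 CPM with SM. Its level in the pair numbered 1 was near 1 CPM (the read count of a gene scaled to the size of its library) in both cultures, and the rise came from the other pairs.

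Members of a list of NRF2 targets gave 28 of the 188 rises, and members of a list of cholesterol synthesis and uptake genes gave 21 of the 234 falls. AKR1C1, an aldo-keto reductase of the first list, lay at 31.9, 51.1 and 43.6 CPM in untreated replicates 1, 2 and 3 and at 61.9, 110.5 and 92.7 CPM with SM, and HMGCS1, an early enzyme of the second, at 411, 326 and 312 CPM in untreated replicates 1, 2 and 3 and at 314, 221 and 236 CPM with SM. The other 373 called genes, 160 higher and 213 lower, are the subject of what follows. Their changes were small. The median absolute log2 fold change was 0.21 over these 373 genes, and 14 rises and 8 falls reached 1.5-fold. Of all 422 called genes, 28 lay below 5 CPM in both groups and 405 are protein coding. The groups did not overlap for 61 of the 188 risers and 54 of the 234 fallers, against 3.35% of all tested genes with every SM library above and 3.42% with every SM library below. Since the called genes were selected for a difference in these same libraries, a larger share among them is built in. Nearest the threshold, AK4 (adjusted p = 0.04997) and DGKE (0.0489) lay inside it and PLXNB1 (0.0504) and BBX (0.0504) outside it by edgeR.

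The calls rested on the block. Without it, the same edgeR model called 3 genes (0.0195%), AKR1C2, AKR1C3 and GPX2, all outside the 373. An unadjusted p below 0.05 was found for 361 genes (2.34%), against 2294 with the block (14.9%). The count of 422 fell to 185, 170 and 151 without untreated replicate 1, 2 or 3, to 271 without SM replicate 3, and to 213 and 112 without all libraries numbered 2 or 3. For the 373 genes outside the 2 lists, the count became 141, 133 and 115 without untreated replicate 1, 2 or 3, 227 without SM replicate 3, and 173 and 77 without the libraries numbered 2 or 3. Leaving out 1 of the 6 libraries or 1 replicate number gave 9 fits, and 84 genes were called with the same sign in every one of them. These 84, referred to as stable calls, were 16 NRF2 targets, 16 cholesterol genes and 52 others, of which 24 were higher and 28 lower with SM.

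The libraries numbered 1 stood apart in every group. On the first principal component of the 6 libraries, which held 47.5% of the variance, untreated replicate 1 and SM replicate 1 scored -29.0 and -25.5 and the other untreated libraries 5.02 and 6.18. SM replicates 2 and 3 scored 28.2 and 15.1, further from the libraries numbered 1 than their untreated partners. SM replicate 2, which had the lowest total count (39315662), also stood apart on the second component (24.1, with 21.3% of the variance). The genes called for SM lay along the same axis, as measured in the DSM libraries. The DSM libraries take no part in the pair differences between SM and untreated cells. They did enter the fit that called the genes, through the replicate term and the estimate of spread, so this measure is not independent of the calls. A blocked fit of the 6 libraries alone called 604 genes, among them all 422. DSM replicate 1 was the lowest of the 3 DSM libraries for 132 of the 160 risers outside the 2 lists (82.5%), against 38.1% of all tested genes. It was the highest for 186 of the 213 fallers outside the lists (87.3%), against 37.7% of all tested genes. Among the called NRF2 targets it was the lowest for 14 of 28 (50%), and the difference from the other risers was not tested. Among the cholesterol genes it was the highest for 20 of 21. What the replicate numbers share is not given in the sources used here, and the part of this axis in the SM response was not tested. Without the libraries numbered 1, 318 genes were called, of which 250 were among the 422.

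**Figure D1:**
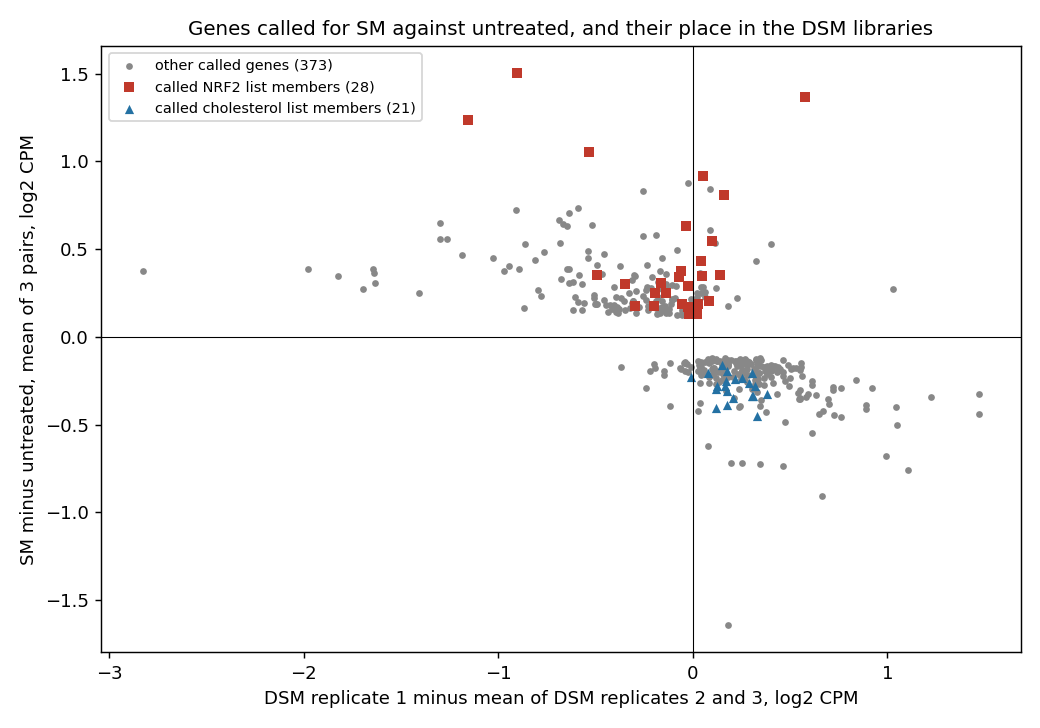
Each point is 1 of the 422 genes called for SM against untreated. The x axis gives, in log2 CPM, DSM replicate 1 minus the mean of DSM replicates 2 and 3, and the y axis the mean over 3 pairs of SM minus untreated in log2 CPM. Squares are NRF2 list members, triangles are cholesterol list members and circles are the other genes, most of which lie at the upper left and lower right.

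Gene lists show which processes some of the called genes belong to, while 271 of the 422 were in no list. Of 37 lists, 29 held at least 1 called member, and 1 did so without the block. After the NRF2 list, the ATF4 list had the most risers (16 of 38 tested members), followed by the cytosolic aminoacyl-tRNA synthetases (4 of 20). After the cholesterol list, the endoplasmic reticulum chaperones had the most fallers (8 of 26), followed by the Wnt and stem cell list (7 of 28) and the extracellular matrix list (7 of 43). These shares are to be read against 1.22% and 1.52% of all tested genes. Because the lists were written with earlier results of these data known, part of any excess may be built in.

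**Figure D2:**
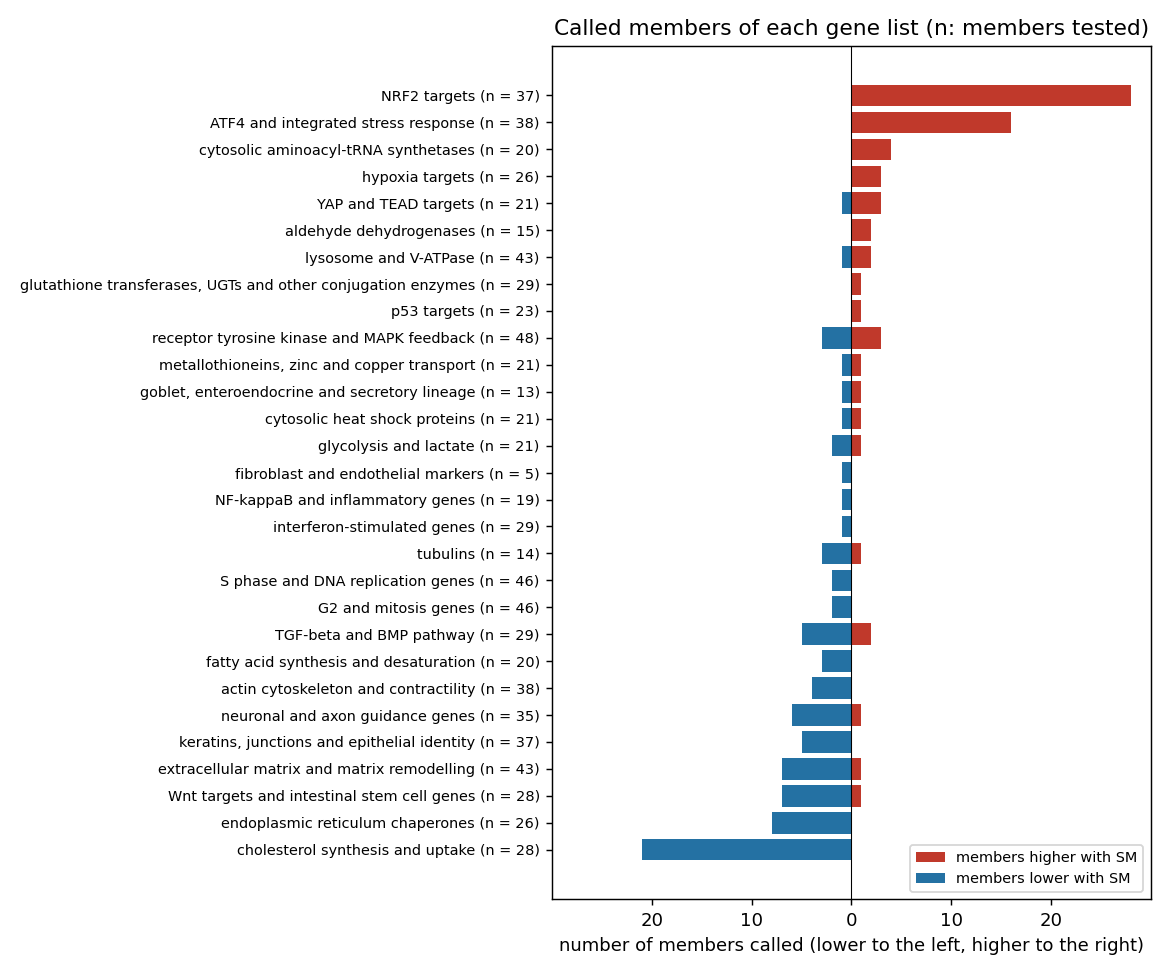
The bars count the members of each list that were called, those lower with SM to the left and those higher to the right, and n is the number of members tested. The 29 lists with a called member are shown, from the NRF2 targets (28 higher) at the top to cholesterol synthesis and uptake (21 lower) at the bottom.

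A number of genes of the integrated stress response were higher with SM. Of 38 tested members of the ATF4 list, 16 rose, 0 fell and 22 were not called. Of the 38, 35 had a positive log2 fold change, and the median was 0.24, against -0.000193 over all tested genes. The median pair difference over the list was 0.097, 0.254 and 0.281 log2 CPM in the pairs numbered 1, 2 and 3, smallest in the first. STC2, a secreted glycoprotein induced by stress, lay at 66.2, 122 and 104 CPM in untreated replicates 1, 2 and 3 and at 81.9, 158 and 145 CPM with SM. VEGFA, the vascular growth factor, lay at 35.5, 77.1 and 72.8 CPM against 44.3, 103 and 97.6 CPM with SM, and PHGDH, the first enzyme of serine synthesis from glycolysis, at 50.9, 182 and 184 CPM against 62.4, 219 and 219.7 CPM with SM. For all 3 genes the libraries numbered 1 were the lowest of their group and the groups overlapped, while SM was higher in each pair. STC2 rose by 0.39 on the log2 scale (SE 0.04, edgeR adjusted p = 7.61e-06), VEGFA by 0.39 (SE 0.05, 9.43e-06) and PHGDH by 0.27 (SE 0.04, 4.17e-05). SESN2, sestrin 2, which holds back mTORC1 when leucine is short, lay at 9.01, 27.1 and 22.1 CPM against 11.6, 36.2 and 33.6 CPM with SM, a log2 fold change of 0.48 (SE 0.06, adjusted p = 7.46e-05). PPP1R15A, also called GADD34, the phosphatase subunit that reverses eIF2α phosphorylation, lay at 116, 142 and 108 CPM against 134, 175 and 132 CPM with SM (log2 fold change 0.27, SE 0.04). These 5 genes and GDF15, a stress-induced cytokine, were the 6 stable calls of the list.

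Further risers supply amino acids and charged tRNA. SLC7A1, the carrier of arginine and lysine, rose by 0.19 on the log2 scale (SE 0.03), MTHFD2, a mitochondrial folate enzyme, by 0.19 (SE 0.04) and XPOT, which exports tRNA from the nucleus, by 0.22 (SE 0.04). XPOT was a stable call, whereas SLC7A1 lost the call without untreated replicate 3 and MTHFD2 in 7 of the 9 leave-out fits. Among 20 cytosolic aminoacyl-tRNA synthetases, SARS1, GARS1, CARS1 and EPRS1 rose by between 0.14 and 0.19 and 0 fell, with a median of 0.08 over the list. The median pair difference over the list was 0.0195, 0.0891 and 0.14 log2 CPM in the pairs numbered 1, 2 and 3. None of the 4 risers was a stable call, and all 4 lost the call without untreated replicate 2, untreated replicate 3 or SM replicate 3. ASNS, asparagine synthetase, lay at only 1.94, 6.35 and 5.38 CPM in untreated replicates 1, 2 and 3 and at 2.16, 7.69 and 9.01 CPM with SM. Its rise was largest in the pair numbered 3, and its adjusted p of 0.0210 by edgeR rose above 0.05 without untreated replicate 2, untreated replicate 3 or SM replicate 3 and by DESeq2 and limma voom.

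Promoters of 2 risers are shown because they hold the letters TGATGNAA, the core of the C/EBP-ATF response element through which ATF4 is known to act on ASNS. Each is the 250 bases before the start site in RefSeq annotation of GRCh38.p14, written 5′ to 3′ on the strand of the gene, with the match in capitals. The ASNS promoter is at chr7:97872409-97872658 on the minus strand, with the match 68 bases before the start. The promoter of S100P, a calcium-binding protein, is at chr4:6693628-6693877 on the plus strand, and its match, 123 bases before the start, reads on the other strand.
ASNS: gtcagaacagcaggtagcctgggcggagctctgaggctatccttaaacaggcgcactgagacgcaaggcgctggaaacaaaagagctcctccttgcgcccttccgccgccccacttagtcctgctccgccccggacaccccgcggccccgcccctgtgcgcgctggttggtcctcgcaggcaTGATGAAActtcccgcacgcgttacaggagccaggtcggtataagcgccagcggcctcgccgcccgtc
S100P: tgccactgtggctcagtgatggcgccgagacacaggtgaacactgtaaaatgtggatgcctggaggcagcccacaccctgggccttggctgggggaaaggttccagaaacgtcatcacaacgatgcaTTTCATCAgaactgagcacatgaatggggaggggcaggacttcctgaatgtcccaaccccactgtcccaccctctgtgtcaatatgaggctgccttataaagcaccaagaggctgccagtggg
S100P is no member of the ATF4 list and lay at 51.4, 113 and 105 CPM against 60.4, 166 and 132 CPM with SM, a log2 fold change of 0.38 (SE 0.06, edgeR adjusted p = 0.00128), which lost the call without the libraries numbered 3. RefSeq windows of 300 bases, from 250 before to 50 after the start, were at hand for 11770 tested genes and for 332 of the 422 called. On either strand the letters were in 4 of 145 windows of risers (2.76%), those of ASNS, S100P, CARS1 and SLC7A1. They were also in 2 of 187 windows of fallers (1.07%), those of CDKAL1 and MAGED1, which are not shown. Among all 11770 windows they were in 216 (1.84%). Because the windows cover 78.7% of the called genes, under the 80% needed here, no comparison of shares is drawn.

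Some chaperones of the endoplasmic reticulum were lower with SM. Of 26 tested members, 8 fell, 0 rose and 18 were not called. The median log2 fold change was -0.07, and 7 members had a positive value. CALR, the calcium-binding lectin chaperone calreticulin, lay at 768, 689 and 671 CPM in untreated replicates 1, 2 and 3 and at 663, 548 and 557 CPM with SM. PDIA4, a protein disulfide isomerase, lay at 309.8, 299 and 287 CPM against 268, 252 and 256 CPM with SM. MANF, a secreted stress-responsive protein of this compartment, lay at 91.4, 75.9 and 77.1 CPM against 74.0, 68.3 and 65.0 CPM with SM. For these 3 genes every SM library lay below every untreated library, although the differences were small. CALR fell by 0.27 on the log2 scale (SE 0.04, edgeR adjusted p = 4.17e-05), PDIA4 by 0.21 (SE 0.03, 0.000357) and MANF by 0.24 (SE 0.04, 0.000413). HSPA5, the central Hsp70 chaperone BiP, lay at 564, 472 and 436 CPM against 478, 401 and 386 CPM with SM, and only the libraries numbered 1 brought the groups to overlap. Its log2 fold change was -0.22 (SE 0.03). CALR, PDIA4, MANF, HSPA5 and PDIA6 were stable calls, and HSP90B1, SDF2L1 and CRELD2 were the other members that fell. Of 21 chaperones of the cytosol, 1 was higher (FKBP4, 0.14, SE 0.03) and 1 lower (HSPB1, -0.18, SE 0.05). Without untreated replicate 1, 2 or 3, FKBP4 and HSPB1 were not called.

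MYC, the growth-promoting transcription factor, showed the largest rise in CPM among genes outside the 2 lists. It lay at 599, 752 and 706 CPM in untreated replicates 1, 2 and 3 and at 741, 1050.5 and 955 CPM with SM. The highest untreated level, in replicate 2, just exceeded the lowest SM level, in replicate 1, so the groups overlapped, but each SM library was above its untreated partner. The log2 fold change was 0.41 (SE 0.04, edgeR adjusted p = 3.89e-07), and between 0.36 and 0.47 in the 9 leave-out fits, in all of which MYC was called. MXI1, which pairs with MAX and opposes MYC, was also higher, at 7.78, 13.8 and 12.3 CPM against 10.0, 19.1 and 16.1 CPM with SM (log2 fold change 0.41, SE 0.07), and lost the call without the libraries numbered 3. MYC and MXI1 are counted in other lists, and SURF6 and USP36, nucleolar proteins called higher, are in no list. Of 34 tested genes in the list of the MYC network and nucleolar ribosome biogenesis, 0 were called. Of these 34 genes, 29 had a positive log2 fold change, and the median was 0.05. The most abundant of them were NCL, nucleolin, at 0.03 (SE 0.03, adjusted p = 0.736) and NPM1, nucleophosmin, at 0.03 (SE 0.03, adjusted p = 0.709).

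**Figure D3:**
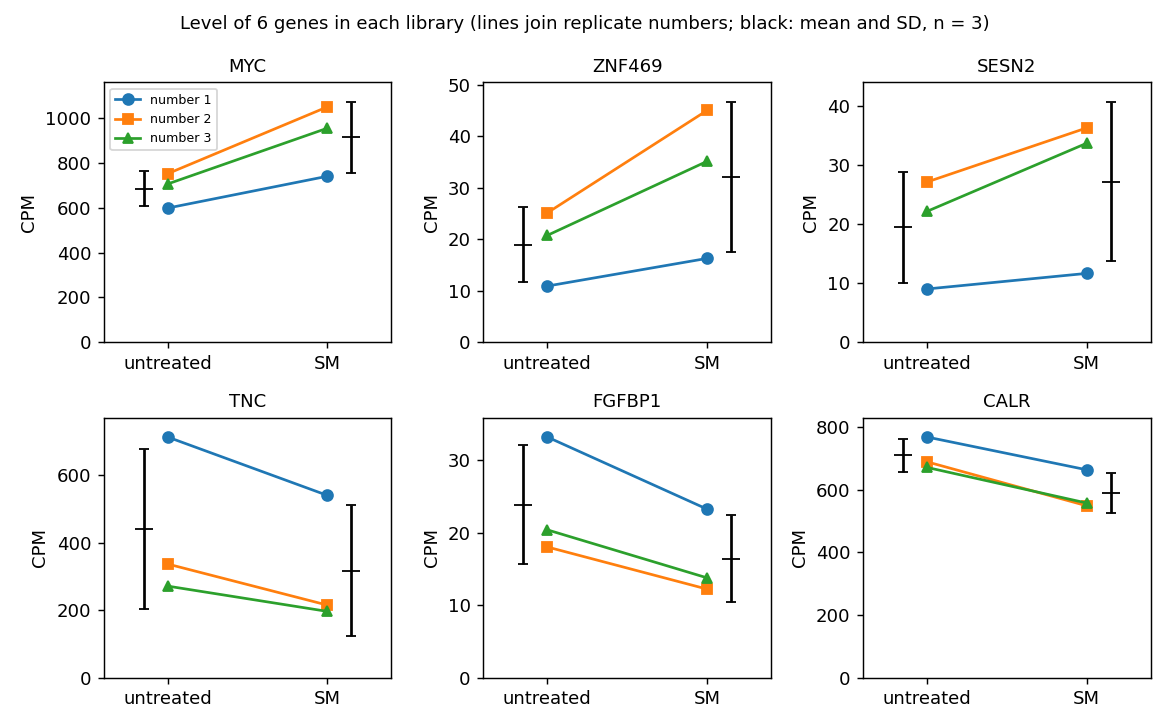
Level in CPM of 6 genes in each of the 6 libraries, with lines joining the SM and untreated libraries of the same replicate number and black bars for the mean and SD of each group (n = 3). MYC, ZNF469 and SESN2 are higher with SM in every pair and TNC, FGFBP1 and CALR are lower in every pair, while the groups overlap for all but CALR.

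Of the 15 largest rises of at least 5 CPM outside the 2 lists, ZNF469 and HTRA3 were the most marked. Rises of genes below 5 CPM in both groups are left out of this ranking. ZNF469, a zinc finger gene linked to the collagen matrix of the cornea (chromosome 16, 88100931 to 88440753 of GRCh38.p14), lay at 10.9, 25.1 and 20.7 CPM in untreated replicates 1, 2 and 3 and at 16.3, 45.0 and 35.1 CPM with SM. The libraries numbered 1 were the lowest in both groups, and SM was higher in each pair, by least in the pair numbered 1. HTRA3, a secreted serine protease (chromosome 4, 8269754 to 8307098), lay at 5.50, 7.11 and 4.89 CPM in untreated replicates 1, 2 and 3 and at 7.24, 13.5 and 9.14 CPM with SM, with every SM library above every untreated one. The log2 fold changes were 0.74 (SE 0.06, edgeR adjusted p = 9.95e-08) and 0.74 (SE 0.10, adjusted p = 9.01e-05). Both were stable calls.

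The other large rises are given gene by gene. TBC1D4, a Rab GTPase-activating protein of insulin-regulated glucose transporter traffic, lay at 2.27, 4.28 and 4.06 CPM against 3.55, 6.47 and 6.58 CPM with SM. UNC5B, a netrin receptor, lay at 2.16, 5.91 and 6.53 CPM against 2.84, 9.80 and 9.65 CPM with SM. CD55, the complement decay-accelerating factor, lay at 5.51, 10.00 and 8.44 CPM against 8.12, 14.8 and 10.6 CPM with SM. In each of these 3 genes the libraries numbered 1 were the lowest of their group. TBC1D4 rose by 0.65 on the log2 scale (SE 0.10, edgeR adjusted p = 0.000357), UNC5B by 0.59 (SE 0.10, 0.00149) and CD55 by 0.48 (SE 0.08, 0.000408). PAQR5, a membrane progesterone receptor, lay at 4.39, 5.42 and 4.29 CPM against 5.79, 7.52 and 6.52 CPM with SM, with no overlap between the groups. CPLX2, complexin 2, a regulator of vesicle fusion, lay at 12.4, 13.0 and 16.1 CPM against 14.7, 18.4 and 25.8 CPM with SM, and RAB3IL1, an exchange factor for Rab3A, at 3.45, 7.46 and 7.48 CPM against 4.98, 11.8 and 9.85 CPM with SM. FHL1, a LIM domain protein, FAM107B and CAMKV, a kinase-like vesicle protein, rose by 0.55 (SE 0.12), 0.46 (SE 0.07) and 0.45 (SE 0.08) on the log2 scale. Of the 15 largest rises, 6 were stable calls, namely HTRA3, ZNF469, CD55, SESN2, FAM107B and RAB3IL1. TBC1D4, UNC5B, CPLX2 and CAMKV lost the call only without the libraries numbered 3, while FHL1 also lost it without untreated replicate 2 or SM replicate 3 and PAQR5 without untreated replicate 2 or 3.

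**Figure D4:**
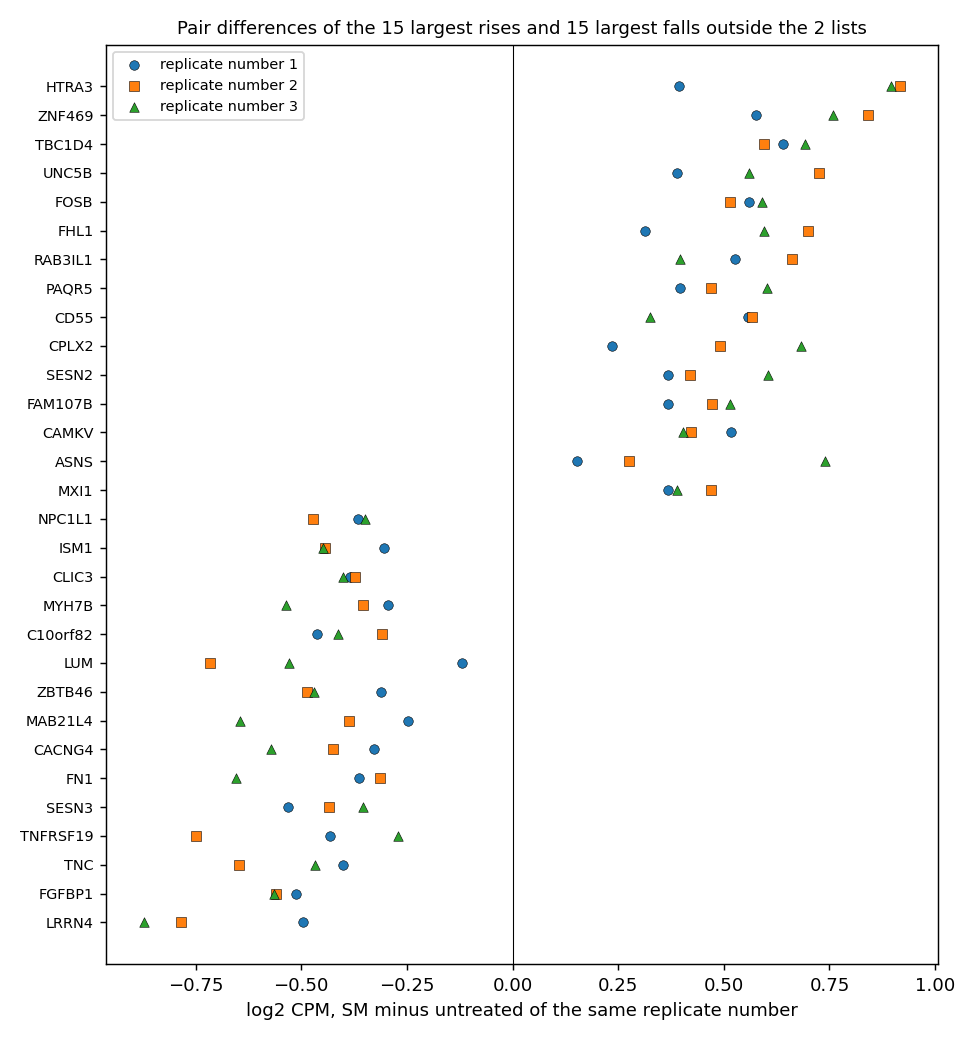
Difference in log2 CPM between the SM and untreated libraries of the same replicate number, for the 15 largest rises and 15 largest falls of at least 5 CPM outside the NRF2 and cholesterol lists. All 3 pairs lie on the same side of 0 for each of the 30 genes, and within a gene the pairs differ, for LUM and ASNS most plainly.

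Immediate early genes and genes of growth factor signalling moved both ways. In the list of receptor tyrosine kinase and MAPK feedback genes, 3 of 48 rose and 3 fell. FOSB, an AP-1 subunit, lay at 2.30, 6.81 and 3.35 CPM against 3.404, 9.75 and 5.07 CPM with SM, a log2 fold change of 0.55 (SE 0.10, edgeR adjusted p = 0.00208), and FOS rose by 0.39 on the log2 scale (SE 0.08). ERRFI1, a feedback inhibitor of EGFR, also rose. FGFBP1, a carrier that releases FGFs from matrix, lay at 33.2, 18.0 and 20.4 CPM in untreated replicates 1, 2 and 3 and at 23.2, 12.2 and 13.8 CPM with SM, lower in each pair by a nearly equal amount. It fell by 0.54 (SE 0.06, adjusted p = 7.52e-06) and was the stable call of this list, while FOSB lost the call without untreated replicate 3 and FOS when SM replicate 1 or any 1 of the untreated libraries was absent. PHLDA1 fell by 0.16 (SE 0.03), and lost the call without untreated replicate 1 or 2, and JUND, another AP-1 subunit, fell as well. FGF3, a fibroblast growth factor ligand outside every list, lay at 106, 69.5 and 74.7 CPM against 79.5, 60.0 and 55.3 CPM with SM and was a stable call.

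In the matrix list 7 of 43 members fell, 1, HTRA3, rose and 35 were not called. Of the 43, 31 had a negative log2 fold change, with a median of -0.07. TNC, the matrix glycoprotein tenascin C (chromosome 9, 115019575 to 115118157), lay at 714, 337 and 272 CPM in untreated replicates 1, 2 and 3 and at 541, 215 and 197 CPM with SM. The libraries numbered 1 were far above the others in both groups, which therefore overlapped, and SM was lower in each pair. TNC had a log2 fold change of -0.50 (SE 0.06, edgeR adjusted p = 0.000408). HSPG2, the basement membrane proteoglycan perlecan, lay at 228, 187 and 206 CPM against 194, 162 and 168 CPM with SM and fell by 0.24 (SE 0.03). FN1, fibronectin, fell by 0.44 (SE 0.09) and lost the call without untreated replicate 1, untreated replicate 3 or SM replicate 3. VIM, the mesenchymal filament vimentin, fell by 0.17 (SE 0.03) and lost the call without untreated replicate 1 or 3. AGRN, NID1 and COL18A1 were the other members that fell. LGALS1, galectin 1, a lectin of the cell surface and matrix outside every list, lay at 233, 139.8 and 144 CPM against 195, 116 and 110.1 CPM with SM and was a stable call.

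Axon guidance and neuronal genes, several of which colon cancer cells express, had 6 of 35 members lower, 1, UNC5B, higher and 28 not called. LRRN4, a leucine-rich repeat membrane protein (chromosome 20, 6040546 to 6054060), showed the largest fall of any gene above 5 CPM outside the 2 lists, at 10.0, 6.37 and 7.48 CPM in untreated replicates 1, 2 and 3 and at 7.11, 3.68 and 4.07 CPM with SM. It fell by 0.69 (SE 0.10, edgeR adjusted p = 0.000270). SEMA3A, a secreted guidance cue, lay at 96.1, 81.3 and 74.8 CPM against 83.2, 63.3 and 67.0 CPM with SM, and TUBB3, the neuronal beta tubulin, at 188, 146 and 142 CPM against 159, 120.0 and 124 CPM with SM. LRRN4, SEMA3A and TUBB3 were stable calls, with falls of 0.24 (SE 0.04) and 0.24 (SE 0.03) for the latter pair. DPYSL3, a collapsin response mediator that acts downstream of semaphorins and is in no list, lay at 106, 62.9 and 64.7 CPM against 84.6, 47.7 and 47.9 CPM with SM, a fall of 0.38 (SE 0.04, adjusted p = 9.76e-07), and was also a stable call. EPHB2, ROBO1 and NRP1, receptors of guidance cues, were the other members that fell.

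Among Wnt targets, stem cell genes and the TGF-beta and BMP pathway, more members fell than rose and most were not called. Of 28 Wnt and stem cell genes 7 fell, MYC rose and 20 were not called, with a median log2 fold change of -0.08 and 7 positive values. NKD1, a feedback inhibitor of Wnt signalling, lay at 2386, 1851 and 1963 CPM in untreated replicates 1, 2 and 3 and at 2107, 1617 and 1736 CPM with SM. It fell by 0.18 (SE 0.03, edgeR adjusted p = 0.00124) and lost the call without the libraries numbered 3. SOX4, a transcription factor of progenitor cells, lay at 473, 389 and 359 CPM against 421, 315 and 322 CPM with SM, and SOX2, a pluripotency factor outside every list, at 140.3, 105 and 111 CPM against 120.5, 82.4 and 89.2 CPM with SM. Both were stable calls, with falls of 0.21 (SE 0.04) and 0.29 (SE 0.04). TNFRSF19, a receptor of the TNF family also known as TROY, was lower at 10.1, 6.60 and 6.04 CPM against 7.45, 3.91 and 5.00 CPM with SM and lost the call without untreated replicate 1 or 2. EPHB2, PROX1 and SP5 also fell. In the TGF-beta and BMP list 5 of 29 fell, 2 rose and 22 were not called, with a median of -0.07 and no stable call. The ligand BMP4 lay at 241, 177 and 175 CPM against 225, 150.0 and 152 CPM with SM, a fall of 0.18 (SE 0.03) that was not called once untreated replicate 2 was removed. BAMBI, a decoy receptor, ID1, BMPR2 and TGFBI fell as well. ACVR2B, an activin receptor, was among the members that rose.

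A few cytoskeletal and epithelial genes were lower, by small amounts. Among 37 keratin, junction and epithelial genes 5 fell and 0 rose, 32 had a negative log2 fold change and the median was -0.05. KRT19 lay at 1919, 1309 and 1299 CPM against 1675, 1172 and 1145 CPM with SM, and KRT7 at 22.7, 15.8 and 16.6 CPM against 18.6, 11.9 and 13.6 CPM with SM. Both are keratins of simple epithelia, and they fell by 0.18 (SE 0.03) and 0.32 (SE 0.06). KRT7 was a stable call, while KRT19 lost its call without untreated replicate 1 or 3. The actin list had 4 of 38 members lower, among them ACTG1, gamma actin, and the calponins CNN2 and CNN3, with 0 higher and 34 not called. VIL1, villin of the brush border, which both lists hold, fell by 0.14 (SE 0.03). VIL1, ACTG1, CNN3 and CNN2 lost the call in 6, 8, 7 and 3 of the 9 leave-out fits. Of 14 tubulins TUBB, TUBA1A and TUBB3 fell and TUBE1 rose. TUBE1 lost the call in 7 of the 9 leave-out fits and by DESeq2, and TUBA1A without the libraries numbered 1. TUBB lay at 1967, 1807 and 1924 CPM against 1799, 1687 and 1753 CPM with SM, with every SM library below every untreated library, and its fall of 0.12 (SE 0.03, edgeR adjusted p = 0.0424) lost the call in each of the 9 leave-out fits.

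Lists of metabolic and proliferation genes held few called members, in shares that differed. Called members were 15% of the fatty acid list, 14.3% of glycolysis and 6.98% of the lysosome list. They were 4.35% of the G2 and of the S phase list, against 2.74% of all tested genes. SREBF1, the transcription factor of lipid synthesis, lay at 168, 137 and 146 CPM against 142, 124 and 126 CPM with SM and was a stable call, and FASN and SCD, which make and desaturate fatty acids, fell by 0.15 (SE 0.03) and 0.15 (SE 0.04), so that 3 of 20 fatty acid genes were lower and 0 higher. FASN and SCD each lost the call without any 1 of the untreated libraries. Of 46 G2 and mitosis genes ECT2 and ANLN fell, and of 46 S phase genes TK1 and TYMS fell, with 0 higher in either list. In the G2 and mitosis list 36 members had a negative log2 fold change, with a median of -0.05. ECT2 and ANLN each lost the call in 7 of the 9 leave-out fits and TYMS in 6. TK1, thymidine kinase, lay at 148, 139 and 159 CPM against 133, 129.8 and 131 CPM with SM, with no overlap between the groups, and was not called once untreated replicate 3 or SM replicate 3 was removed. Among glycolysis genes PFKM rose by 0.16 (SE 0.03) while PGAM1 and the lactate carrier SLC16A3 fell by 0.12 (SE 0.03) and 0.12 (SE 0.03), none of them a stable call. The lysosomal protease CTSB, cathepsin B, lay at 109, 124 and 109 CPM against 126, 143 and 129 CPM with SM, with every SM library above every untreated one, and rose by 0.22 (SE 0.03, edgeR adjusted p = 0.000130), a stable call. TFE3, a transcription factor of lysosome genes, rose by 0.16 (SE 0.04) and ATP6AP2, a proton pump subunit, fell by 0.15 (SE 0.04), so 2 of 43 lysosome genes were higher and 1 lower. TFE3 and ATP6AP2 each lost the call in 7 of the 9 leave-out fits.

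Several lists held few called genes, in shares to be read against 2.74% of all tested genes. These were 19% for YAP and TEAD targets, 15.4% for the secretory lineage, 13.3% for aldehyde dehydrogenases, 11.5% for hypoxia targets and 9.52% for metallothioneins and metal transport. Nearer that background were NF-kappaB genes (5.26%), p53 targets (4.35%), interferon-stimulated genes (3.45%) and conjugation enzymes (3.45%). Among 26 hypoxia targets the 3 risers were STC2, VEGFA and MXI1, the first pair of which the ATF4 list also holds, and the p53 list had SESN2 as its 1 riser of 23. AMOTL2, ASAP1 and IGFBP3 rose and PTPN14 fell among 21 YAP and TEAD targets, and none was a stable call. ISG15 was the 1 interferon-stimulated gene of 29 that fell, at 30.2, 27.5 and 27.6 CPM against 27.4, 22.9 and 22.0 CPM with SM, and TNFAIP2 the 1 of 19 NF-kappaB genes, at 33.4, 17.4 and 17.8 CPM against 25.6, 13.8 and 14.2 CPM with SM. ISG15 lost the call without untreated replicate 2, untreated replicate 3 or SM replicate 3, and TNFAIP2 without untreated replicate 1. TFF2, a mucosal trefoil peptide, rose by 0.43 (SE 0.12) and AGR2, a disulfide isomerase of secretory cells, fell by 0.29 (SE 0.07), each losing the call without any 1 of the untreated libraries. MT1G, a metallothionein, rose by 0.40 (SE 0.10), the zinc importer SLC39A10 fell by 0.23 (SE 0.05), and the aldehyde dehydrogenases ALDH1L2 and ALDH3A2 and the carbonyl reductase CBR1 rose by 0.38, 0.14 and 0.18. All 5 lost the call without untreated replicate 1 or 3.

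The other 8 lists had no called member by edgeR. They were 78 mitochondrial ribosomal proteins, 75 nuclear subunits of the respiratory chain, 77 cytosolic ribosomal proteins, 33 proteasome subunits, 23 iron genes, 26 autophagy genes, the MYC network described above and the leukocyte markers. Median log2 fold changes over the mitochondrial ribosomal and respiratory chain lists were -0.00296 and -0.02. The autophagy list had a median of 0.04 with 23 positive values. Genes of related function were called outside these lists, among them MYC, MXI1, SURF6 and USP36, described above. FTH1, FTL, HMOX1 and SLC48A1, of iron and heme handling, and SQSTM1, an autophagy receptor, were called higher and are counted with the NRF2 targets, and PIK3C3, EPG5 and WDR45, which act in autophagy, were called higher and are in no list. MRPS34 of the mitochondrial ribosome had a log2 fold change of 0.06 (SE 0.04), UQCRC1 of complex III -0.01 (SE 0.03) and the ribosomal protein RPS2 -0.05 (SE 0.04). TFRC, the transferrin receptor, had one of 0.19 (SE 0.05, edgeR adjusted p = 0.0803). The median 95% interval of a log2 fold change reached 0.12 to either side, without adjustment for the number of genes tested. A call rested on the adjusted p, so a gene with this median interval needed a change larger than 0.12. The size needed differed between genes, and PGAM1 and TUBB were called at -0.12 (SE 0.03 for each). Smaller changes in the genes not called may have gone undetected.

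Lists covered a minority of the called genes, and 271, of which 119 were higher and 152 lower, were in no list. Among risers with the smallest p, COQ8A, an atypical kinase needed for coenzyme Q synthesis, lay at 27.7, 43.6 and 41.2 CPM against 33.6, 59.7 and 51.8 CPM with SM, and NR1D1, the circadian repressor REV-ERBα, at 21.6, 27.9 and 25.3 CPM against 28.2, 38.0 and 29.8 CPM with SM. NR1D1 was lowest in the SM library numbered 1, which still exceeded every untreated library. IRS2, an adaptor of the insulin receptor, lay at 68.3, 85.4 and 71.6 CPM against 75.6, 106 and 84.3 CPM with SM, and PLD6, a mitochondrial surface phospholipase, at 13.9, 22.9 and 21.5 CPM against 16.9, 31.1 and 26.1 CPM with SM. COQ8A, NR1D1, IRS2 and PLD6 rose by 0.36, 0.36, 0.23 and 0.33 on the log2 scale (SE 0.04, 0.05, 0.04 and 0.05) and were stable calls. Among the falls, SESN3, a sestrin like SESN2, lay at 29.2, 17.3 and 17.9 CPM against 20.2, 12.8 and 14.02 CPM with SM, opposite in direction to SESN2. SESN3 fell by 0.45 (SE 0.06, edgeR adjusted p = 4.06e-05). PRF1, perforin, better known from cytotoxic lymphocytes, lay at 89.0, 61.8 and 54.5 CPM against 75.9, 48.2 and 42.3 CPM with SM and fell by 0.31 (SE 0.04). NPC1L1, the intestinal sterol importer, which the cholesterol list does not hold, lay at 12.6, 8.36 and 9.31 CPM against 9.76, 6.02 and 7.30 CPM with SM and lost the call without untreated replicate 1 or 3. SESN3 and PRF1 were stable calls, as were TTYH3, ADAM19, a metalloprotease, and MAB21L4. CACNG4, a calcium channel subunit, ZBTB46, a transcription factor, C10orf82, MYH7B, a myosin heavy chain, CLIC3, an intracellular chloride channel protein, and ISM1, a secreted protein, completed the 15 largest falls, with log2 fold changes between -0.42 and -0.39. Of those 15, 5 were stable calls, namely LRRN4, FGFBP1, TNC, SESN3 and MAB21L4. For C10orf82, at 8.70, 9.73 and 10.3 CPM against 6.30, 7.85 and 7.70 CPM with SM, the groups did not overlap.

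Further stable calls, named after their values were seen, were HOXB8, a homeobox factor of posterior identity, with 34.8 ± 10.2 CPM untreated and 28.1 ± 10.5 CPM with SM (SD, n = 3), the toll-like receptor adaptor MYD88 with 82.2 ± 11.4 CPM untreated and 71.1 ± 12.2 CPM with SM, PRSS23, C6orf15 and ITPRID2 among the falls. Among the rises they included the kinase genes PIM3, with 87.0 ± 7.70 CPM untreated and 100.2 ± 10.4 CPM with SM, and CAMKK1, with 23.7 ± 4.09 CPM untreated and 29.3 ± 5.15 CPM with SM, the forkhead factor FOXK1, KLHL21 and NPL. For HOXB8 the SD of the untreated libraries exceeded the difference of the means, while all 3 pairs differed in the same direction.

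At the same dose and time, DSM gave no called gene. By edgeR 0 genes were called for DSM against untreated (0%, with 631 at an unadjusted p below 0.05, or 4.09%), and by DESeq2 0 with 258 at an unadjusted p below 0.05. SM against DSM called 605 genes (3.92%), 263 higher with SM (1.71%) and 342 lower (2.22%). This contrast shares the SM libraries with the contrast to untreated cells, and the DSM contrast shares the untreated ones, so values are set side by side. The 15 largest rises and 15 largest falls of at least 5 CPM outside the NRF2 and cholesterol lists were set against DSM. For these 30 genes, DSM minus untreated lay between -0.26 and 0.11 on the log2 scale. MYC had -0.0028 with DSM (SE 0.04) and SM exceeded DSM by 0.41 (SE 0.04, edgeR adjusted p = 3.48e-07). ZNF469 had -0.01 with DSM (SE 0.06), and SM exceeded DSM by 0.75 (SE 0.06). SESN2 and UNC5B had -0.19 (SE 0.07) and -0.26 (SE 0.11) with DSM, and SM exceeded DSM by 0.67 (SE 0.07) and 0.84 (SE 0.11). TNC and FGFBP1 had 0.05 (SE 0.06) and 0.08 (SE 0.06) with DSM, and SM minus DSM was -0.55 (SE 0.06) and -0.62 (SE 0.06). The 30 genes were chosen for their change with SM, so how many of them also differ between the aldehyde and the alcohol compound is a description and no test. For ASNS, C10orf82 and ZBTB46 the difference did not pass (adjusted p of 0.0566, 0.0708 and 0.0603), with 95% intervals of SM minus DSM of 0.14 to 0.59, -0.41 to -0.09 and -0.49 to -0.12, which does not show that the compounds acted alike on them.

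**Figure D5:**
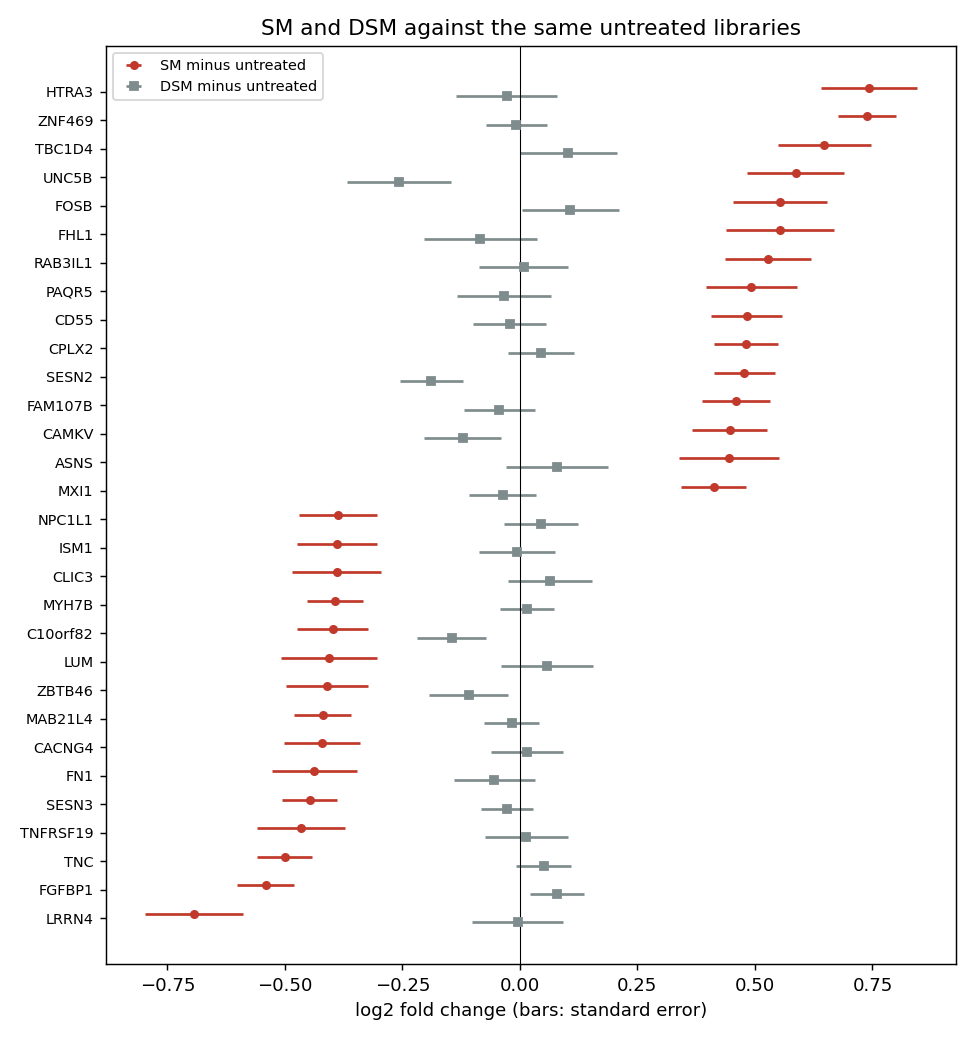
Log2 fold change with its standard error for SM minus untreated (circles) and DSM minus untreated (squares). The genes are the 15 largest rises and 15 largest falls with SM of at least 5 CPM outside the NRF2 and cholesterol lists. Both contrasts use the same 3 untreated libraries. The DSM values lie between -0.26 and 0.11, and the SM values from -0.69 to -0.39 among the falls and from 0.41 to 0.74 among the rises.

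Markers of the colon epithelium differed widely in level. KRT8 and KRT18, with means of 6613 and 3571 CPM untreated, made up most of their sum. CDX2, CDH17, CEACAM5, LGALS4 and KRT20 were low, at 12.8, 6.73, 3.18, 0.336 and 0.315 CPM untreated. The highest markers of other tissues, CD68, COL1A1 and LUM, lay at 16.9, 9.68 and 9.59 CPM untreated. Of 12 colon epithelial markers 11 were tested, 2 (KRT19 and VIL1) were lower and CDX1 was at 0 in all 6 libraries, and their summed level ranged from 11820 to 14860 CPM untreated and from 11300 to 13550 CPM with SM. Of 13 fibroblast and endothelial markers 5 were tested, 1 (LUM, lumican, also among the 15 largest falls) was lower and COL3A1 and DCN were at 0, with summed levels of 18.1 to 31.4 CPM untreated and 14.8 to 28.9 CPM with SM. Of 10 leukocyte markers 4 were tested and 0 were called, with summed levels of 21.5 to 25.9 CPM untreated and 22.7 to 24.4 CPM with SM.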

How the data were processed

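Poly(A) RNA was sequenced from 9 SW620 cultures, 3 each without antibiotic, with SM and with DSM. Per the labels' protocols, a NuGEN Universal Plus mRNA-seq kit was used on TRIzol-extracted RNA. Named in the submitters' processing notes are featureCounts 2.0.0, TopHat2 2.1.1, cutadapt 3.4, bcl2fastq 2.20.0.422 and the build hg38. How strand and multi-mapping reads were handled, and which annotation was used, is not given in the sources used here. Values of genes that overlap, lie antisense or are nearly identical, such as AKR1C1 and AKR1C2, are therefore uncertain. The authors deposited raw read counts per gene, which were the values tested. Total counts lay between 39315662 and 65562227 per library, with 18316 to 19613 genes detected.

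The analysis used edgeR 4.0.16 in R 4.3.3. Genes with 10 or more counts in at least 3 of the 6 SM and untreated libraries were kept and libraries scaled by TMM. All 9 libraries entered 1 robust quasi-likelihood fit with group and replicate number, which left 4 residual degrees of freedom. The two-sided F test of SM against untreated was adjusted over 15415 genes by Benjamini and Hochberg at 0.05. The SE is the absolute log2 fold change divided by the square root of F, and pair differences used log2 CPM with a prior count of 2. Counts of replicates differed by more than sampling would give, with a chi-square of 6.93 to 36.7 for each degree of freedom.

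The replicate numbers come from the labels, which do not say what they share. Deviations from the group means correlated between 0.24 and 0.60 for the 9 same-numbered pairs of libraries. For the 18 others the range was -0.43 to 0.175. Because group means were subtracted, positive same-numbered values force lower values elsewhere, so part of this gap is built in. All negative values involved a library numbered 1. Between libraries numbered 2 and 3 the values were 0.11 to 0.175, against 0.243 to 0.356 for the same-numbered pairs of those numbers. The numbers were taken to pair the libraries.

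The comparison, the gene lists and the rules were chosen with earlier results of these data known. Outside the NRF2 and cholesterol lists the text names called genes with 1 direction in all pairs and a mean of 5 CPM or more with or without SM, excluding pseudogene, antisense and clone-based names: the 15 largest log2 changes and 8 largest CPM differences in each direction. From each list come the 4 called members with the smallest p, or the 2 most abundant members where none was called. Other names, among them the genes in no list and the remaining called members of lists, were chosen after their values were seen. RefSeq records of GRCh38.p14 were matched by gene ID for 15219 tested genes. Alternatives were no block, the 6 libraries alone, DESeq2 1.42.0 and limma 3.58.1 voom with the block, DESeq2 size factors or library totals, no or a stricter filter, no robust estimation, and leaving out each library or replicate number. Fits of the 6 libraries without the block and leave-outs without the block were added after the data were seen. The values of 1 called gene are not reported here.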

Additional observations from a re-analysis of the deposited data

How the results depend on the processing

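The count of 422 called genes was 3 with no replicate block and 726 with no filter on low counts. It lay between 112 and 570 when 1 library or 1 replicate number was left out with the block. For the 421 genes with 1 direction in all 3 pairs, the counts were 3 with no replicate block and 704 with no filter. For the 373 genes outside the NRF2 and cholesterol lists they were 0 with no replicate block, 673 with no filter and between 77 and 517 in the leave-out fits. The 29 lists with a called member became 1 with no replicate block. A fit of the 6 libraries alone with no replicate block called 0 genes (279 at an unadjusted p below 0.05), and leaving out 1 library with no replicate block gave 0 to 3. The other blocked alternatives gave 388 to 604 genes, and of the 422 genes 363 were called by DESeq2 and 410 by limma voom.

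No called gene named by rule changed direction in the blocked fits or in the 9-library fit with no replicate block. Of 108 such genes, 106 lost the call with no replicate block, 11 of 107 by DESeq2 and 6 by limma voom with the block, 16 to 56 when 1 library was left out, and 28, 40 and 68 without the libraries numbered 1, 2 and 3. Of the 422 called genes, 28 lay below 5 CPM in both groups, and the effect of depth on them was not tested.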
